A study of Mus musculus with 14 samples.

Results

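Iron handling in bead-purified mouse brain cells was followed through 10 transcripts: the heme-degrading enzyme Hmox1, the ferritin subunits Fth1 and Ftl1, the ferritin receptor Ncoa4, the iron exporter Slc40a1, the divalent metal transporters Slc11a1 and Slc11a2, the transferrin receptor Tfrc, the ferrireductase Steap3 and the iron sensor Ireb2. The genes were taken by symbol from a table of 41739 mouse genes. Each symbol matched 1 gene identifier, and all 10 were among the 18724 genes with at least 1 TPM (reads per unit of gene length, scaled to the same total in every library) in at least 3 libraries, the genes that were tested.

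The RNA came from cells that were purified with magnetic beads from the brains of mice aged 8 weeks, and it was sequenced in 14 libraries. All mice carried floxed alleles of Rheb, a small GTPase gene upstream of the growth kinase complex mTORC1. The 4 KO LPS libraries came from Rheb F/F; Tmem119-cre ER mice given LPS, the bacterial endotoxin, at 1.0 mg/kg on each of 4 days, and the 4 WT LPS libraries from Rheb F/F mice without Cre given the same. The 3 KO PBS and 3 WT PBS libraries came from the corresponding genotypes injected with PBS, and tamoxifen had been given beforehand. Cre was driven by Tmem119, a microglial gene, so that only cells using this gene can delete Rheb, and what Cre or the changed Tmem119 locus does cannot be told apart from Rheb loss.

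Macrophages obtain iron as transferrin through Tfrc and as heme from engulfed red cells, from which Hmox1 releases the iron. Ferritin, a shell of heavy (Fth1) and light (Ftl1) chains, stores it, Ncoa4 delivers ferritin to the lysosome, where the iron is set free again, and Slc40a1 (ferroportin) is the only known cellular iron exporter of vertebrates. In infection, macrophages are known to hold iron back from the circulation, and microglia are counted among the iron-storing cells of the brain.

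Several of these mRNAs carry iron-responsive elements, hairpins that are bound by the iron regulatory proteins, of which Ireb2 encodes one, when cellular iron is low. Binding in a 5′ UTR blocks translation, and binding in the 3′ UTR of Tfrc protects the mRNA from decay, so Fth1, Ftl1 and Slc40a1 protein can change without a change in their mRNA. The elements are shown because mRNA level, the quantity measured here, is only one of the layers at which these genes are set. They were found in the GENCODE M21 transcripts (GRCm38) as a C, a 5-base arm, a CAGTGN loop whose last base was not G, and a second arm pairing with the first at all 5 positions with G-U pairs allowed, read on the transcript strand only. Each is printed 5′ to 3′ as a window of 27 bases with the loop in capitals.
Fth1, 5′ UTR, chr19:9982733-9982759, plus strand: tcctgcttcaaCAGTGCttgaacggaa
Ftl1, 5′ UTR, chr7:45459780-45459806, minus strand: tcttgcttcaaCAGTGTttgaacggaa
Slc40a1, 5′ UTR, chr1:45925466-45925492, minus strand: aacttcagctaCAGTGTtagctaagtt
Tfrc, 3′ UTR, chr16:32631220-32631246, plus strand: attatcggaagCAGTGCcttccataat
Tfrc, 3′ UTR, chr16:32631599-32631625, plus strand: attatcgggagCAGTGTcttccataat
Tfrc, 3′ UTR, chr16:32631664-32631690, plus strand: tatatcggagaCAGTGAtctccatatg
Tfrc, 3′ UTR, chr16:32631711-32631737, plus strand: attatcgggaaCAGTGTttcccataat
The pattern was present in a UTR of 4 of the 10 genes, and in a UTR of 133 of 21924 protein-coding genes searched (0.607%). The search asked for pairing at every position of the arms, so it misses elements with a bulge or mismatch there. A gene without a match, such as Slc11a2, may therefore still carry an element, and those printed may not be all. A match describes the sequence and is not a measurement of binding.

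Several features set whole libraries apart before any iron gene is considered. Depth, recovered from the table, was 8.0 to 32.3 M reads per library (M, mega). Xist stood at 255 to 574 TPM in the 8 LPS libraries and at 0.147 TPM or less in the 6 PBS libraries, while Y-linked Ddx3y stood at 0.270 TPM or less in LPS and at 111 to 146 TPM in PBS libraries, so the sexes were split along the treatments, although the design text speaks of females, and LPS and sex cannot be told apart. The short RNA gene Gm23935 took 40440 to 153781 TPM in LPS libraries and 566 to 2477 TPM in PBS libraries, which lowers other TPM values under LPS. The pituitary transcript Gh reached 19672 TPM in KO LPS library 3 and 78126 TPM in library WT_PBS_914, against at most 1.90 TPM in KO PBS and 1.07 TPM in WT LPS libraries. All 10 homeostatic microglia markers were detected in each group, with summed levels of 13906 to 19356 TPM in KO LPS, 18565 to 23156 in WT LPS, 30043 to 31863 in KO PBS and 27621 to 35541 in WT PBS libraries. Of these 10, 10 were called lower under LPS in KO and 7 in WT. Between KO and WT, 2 were lower under LPS, and 1 was higher and 1 lower under PBS. Tmem119, the Cre driver, is among the 10. Its log2 fold change in KO was -1.04 under LPS (adjusted p = 0.00857, limma) and -0.70 under PBS (adjusted p = 0.0389). Markers of other cells were present too. Neutrophil markers summed to 12313 to 25641 TPM in KO LPS and 10037 to 22467 in WT LPS libraries. In PBS libraries they gave 6064 to 8959 TPM in KO and 6262 to 24155 in WT. Choroid plexus and ependyma markers reached 14756 TPM in KO LPS, 8947 in WT LPS, 26213 in KO PBS and 22221 in WT PBS libraries. Of 10 monocyte markers, 9 rose under LPS in each genotype. The part of these cells in the changes below was not tested. Rheb itself stood at 22.7 ± 2.43 TPM in KO LPS and 30.8 ± 3.83 TPM in WT LPS libraries (SD, n = 4 each; adjusted p = 0.11, limma), and at 18.2 ± 1.43 TPM in KO PBS and 32.1 ± 2.39 TPM in WT PBS libraries (n = 3 each; adjusted p = 0.0163).

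The 10 transcripts spanned a wide range of levels. TPM is scaled by gene length, so levels can be set side by side, with the limit that the length used for Fth1 (3469 bases of exon union, against 929 in the transcript Fth1-201) is much longer than its usual mRNA and lowers its TPM. In WT PBS libraries, Fth1 (934 TPM) and Ftl1 (687 TPM) lay above 99% of the genes tested, followed by Slc11a1 (209 TPM). Hmox1 (91.0 TPM) and Slc40a1 (89.8 TPM) came next with overlapping ranges, and then Tfrc (64.2), Ireb2 (55.0), Ncoa4 (49.1), Slc11a2 (24.7) and Steap3 (6.70 TPM), the range of Steap3 being 4.20 to 10.5 TPM. The plot of values by library shows every measurement.

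**Figure D1:**
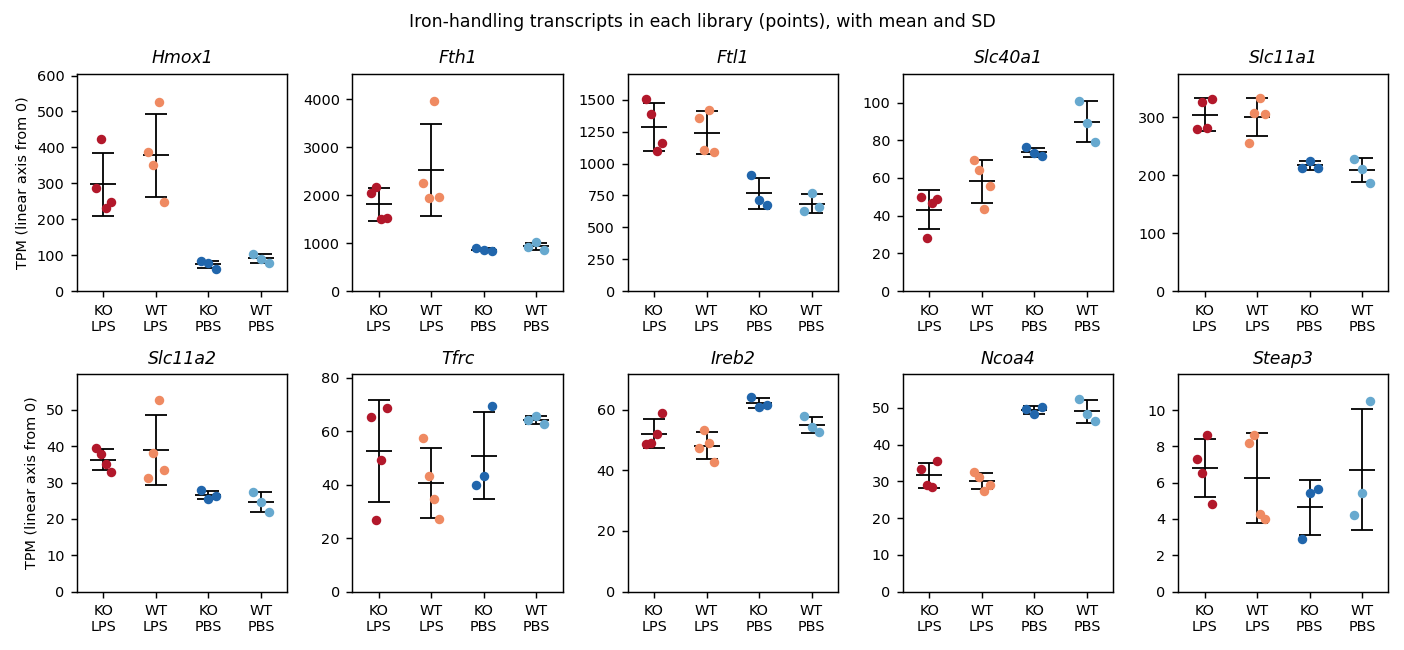
TPM of the 10 iron-handling transcripts (linear axes from 0) in each library, shown as points, by genotype and treatment, with the mean and SD of each group as bars. Hmox1, Fth1, Ftl1, Slc11a1 and Slc11a2 sit higher in LPS than in PBS libraries in both genotypes, Slc40a1 and Ncoa4 sit lower, and KO and WT libraries overlap in most panels.

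Hmox1, both ferritin chains and the metal transporters Slc11a1 and Slc11a2 were higher in LPS than in PBS libraries in both genotypes. The exporter Slc40a1 and the ferritin receptor Ncoa4 were lower in both genotypes. Here and below, changes under LPS are differences between these libraries, in which treatment and sex cannot be told apart. In KO libraries 8 of the 10 transcripts passed the test (limma on log2 of TPM + 1, Benjamini-Hochberg adjusted p under 0.05 over all genes tested), 5 of them higher and 3 lower, and in WT libraries 7 passed, 5 higher and 2 lower. A large part of all genes differed between LPS and PBS libraries: 34.7% of those tested were called in KO and 42% in WT, with 7.82% higher and 26.9% lower in KO, and 7.95% higher and 34.1% lower in WT. The median change over all genes was -0.22 in KO and -0.28 in WT on the log2 scale, against 0.46 in KO and 0.23 in WT for the 10 transcripts. LPS and PBS libraries did not overlap for 8 of the 10 in KO and 8 of the 10 in WT, against 40.8% of all genes in KO and 45.9% in WT. Median-of-ratios scaling brought the median of all genes to 0.00 in KO and 0.01 in WT and turned the split of calls to 2331 higher and 1921 lower in KO and to 3022 higher and 2471 lower in WT. Changes below are therefore read against that shift, and a fall close to it is marked as such. These libraries are bulk RNA, so fewer cells of a type and less RNA per cell cannot be told apart.

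Hmox1 (ENSMUSG00000005413, chr8:75093621-75100589, plus strand; gene positions here and below are those of GRCm38 in GENCODE M21), the enzyme that opens the heme ring and frees its iron, showed the largest change of the 10. It had 286, 424, 232 and 247 TPM in KO LPS libraries and 387, 350, 526 and 248 TPM in WT LPS libraries. In PBS libraries it had 82.9, 77.5 and 62.7 TPM in KO and 104, 90.1 and 79.3 TPM in WT. All 8 LPS libraries thus lay above all 6 PBS libraries. The mean was 4.0 times the PBS mean in KO (log2 fold change 1.95 ± 0.24 SE, adjusted p = 8.43e-05, limma) and 4.15 times in WT (2.0 ± 0.24, adjusted p = 9.24e-05). The change stayed between 1.77 and 2.21 in KO and between 1.82 and 2.34 in WT over the 17 alternatives tried for each. Summed markers of red cells, the source of much macrophage heme, ranged from 3.57 to 29.0 TPM in KO LPS libraries. In WT LPS libraries 1 to 4 they were 11.7, 11.2, 2.03 and 584 TPM. They ranged from 104 to 334 TPM in KO PBS and from 112 to 230 TPM in WT PBS libraries. Of 5 such markers tested, 4 were called lower under LPS in KO and 0 in WT, with median log2 fold changes of -3.30 in KO and -2.18 in WT. The part of red cells in the Hmox1 values was not tested.

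Both ferritin chains rose under LPS. Fth1 (ENSMUSG00000024661, chr19:9980598-9985098, plus strand), whose product oxidises iron for storage, had 2047, 2168, 1494 and 1520 TPM in KO LPS libraries and 2249, 1944, 3956 and 1953 TPM in WT LPS libraries. PBS libraries had 902, 852 and 834 TPM in KO and 929, 1015 and 857 TPM in WT. No LPS library overlapped the PBS libraries, and WT LPS library 3 stood far above the other 3 of its group. For Fth1 the log2 fold change was 1.05 ± 0.22 in KO (adjusted p = 0.00308, limma) and 1.37 ± 0.22 in WT (adjusted p = 0.00062). Leaving out WT LPS library 3 gave 1.13 in WT.

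Ftl1 (ENSMUSG00000050708, chr7:45457944-45459884, minus strand), the light chain that promotes the mineral core, had 1503, 1388, 1095 and 1160 TPM in KO LPS libraries and 1360, 1103, 1421 and 1091 TPM in WT LPS libraries. The PBS libraries had 908, 716 and 673 TPM in KO and 630, 769 and 661 TPM in WT. Every LPS library was higher than every PBS library. Its log2 fold change was 0.75 ± 0.15 in KO (adjusted p = 0.00215, limma) and 0.85 ± 0.15 in WT (adjusted p = 0.000994). Ftl1 has processed copies in the genome, and reads it shares with them make its level uncertain. Strand was not stated, and genes on the opposite strand overlap Ftl1 (Gm10252, at most 5.50 TPM) and Slc11a2 (Gm5475, at most 1.71 TPM). The summed TPM of both chains was 3094 ± 531 in KO LPS and 3769 ± 1104 in WT LPS libraries (SD, n = 4 each), against 1628 ± 160 in KO PBS and 1620 ± 143 in WT PBS libraries (n = 3 each). The sum separated LPS from PBS libraries fully in both genotypes, with p = 0.0571 by an exact permutation test (two-sided), the least that 4 libraries against 3 can give (adjusted p = 0.0914 over 8 comparisons of the sum and of the ratio of both chains).

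Ncoa4 (ENSMUSG00000056234, chr14:32159865-32179855, plus strand), the receptor that takes ferritin to the lysosome for breakdown, moved in the opposite direction to the ferritin chains. It had 33.4, 29.1, 28.6 and 35.5 TPM in KO LPS libraries and 32.5, 31.1, 27.5 and 29.0 TPM in WT LPS libraries. PBS libraries had 49.8, 48.3 and 50.3 TPM in KO and 52.5, 48.3 and 46.4 TPM in WT. The 4 groups had little internal spread and the treatments did not overlap. This gave a log2 fold change of -0.63 ± 0.09 in KO (adjusted p = 0.00023, limma) and -0.69 ± 0.09 in WT (adjusted p = 0.000164). With median-of-ratios scaling it was -0.38 in KO (adjusted p = 0.00575) and -0.36 in WT (adjusted p = 0.00633), still called but smaller by more than 1.5 times.

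Slc40a1 (ENSMUSG00000025993, chr1:45908068-45926523, minus strand), the iron exporter, was lower after LPS. KO LPS libraries had 49.8, 28.0, 46.5 and 48.6 TPM and WT LPS libraries had 69.5, 64.3, 43.4 and 55.9 TPM. In PBS libraries the values were 76.3, 73.0 and 71.6 TPM in KO and 101, 89.2 and 79.2 TPM in WT. Within each genotype all LPS libraries lay below all PBS libraries. The log2 fold change was -0.79 ± 0.19 in KO (adjusted p = 0.00688, limma) and -0.63 ± 0.19 in WT (adjusted p = 0.0192). In KO the call held in all 17 alternatives, at -0.53 with median-of-ratios scaling (adjusted p = 0.029). In WT it was lost in 4 of 17: with median-of-ratios scaling (-0.30, adjusted p = 0.177), with Gm23935 removed (-0.52, adjusted p = 0.0563), without library WT_PBS_904 (-0.54, adjusted p = 0.0797) and without WT LPS library 3 (-0.50, adjusted p = 0.052).

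Slc40a1 is known for its strong expression in macrophages that recycle red cells. Markers of border macrophages summed to 1068 to 1518 TPM in KO LPS, 935 to 1603 in WT LPS, 1458 to 1854 in KO PBS and 967 to 1894 in WT PBS libraries, and of the 12 markers 2 were higher and 1 lower under LPS in each genotype. Endothelial cells of brain vessels also express Slc40a1. Endothelial and mural markers summed to 1282, 469, 1140 and 961 TPM in KO LPS and 1572, 1229, 590 and 922 TPM in WT LPS libraries, against 628, 683 and 1119 TPM in KO PBS and 1290, 1592 and 968 TPM in WT PBS libraries, in the order used for Slc40a1. Both the marker sum and Slc40a1 were lowest in KO LPS library 2 among KO LPS libraries and in WT LPS library 3 among WT LPS libraries. In KO PBS libraries the order of the marker sum was opposite to that of Slc40a1. In WT PBS libraries both were lowest in WT_PBS_914, but Slc40a1 was highest in WT_PBS_904 and the sum in WT_PBS_913. Of the 12 markers, 2 were higher and 1 lower under LPS in KO, and 1 was higher and 2 lower in WT. The part of border macrophages and of endothelial cells in the fall of Slc40a1 was not tested.

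Both divalent metal transporters rose, by smaller steps. Slc11a1 (NRAMP1; ENSMUSG00000026177, chr1:74375195-74386062, plus strand), which pumps metal out of the phagosome and away from engulfed microbes, had 279, 326, 281 and 332 TPM in KO LPS libraries and 255, 307, 333 and 305 TPM in WT LPS libraries. PBS libraries had 213, 225 and 212 TPM in KO and 228, 210 and 187 TPM in WT. All LPS libraries were above all PBS libraries. The log2 fold change was 0.48 ± 0.10 in KO (adjusted p = 0.00282, limma) and 0.52 ± 0.10 in WT (adjusted p = 0.00178), and with median-of-ratios scaling it was 0.75 in KO and 0.86 in WT. Neutrophils also express Slc11a1. Their summed markers ranged from 12313 to 25641 TPM in KO LPS, 10037 to 22467 in WT LPS, 6064 to 8959 in KO PBS and 6262 to 24155 in WT PBS libraries, with 4 of 11 markers higher in KO and 1 of 11 in WT, and monocyte markers rose in 9 of 10 in each genotype. Their part in the Slc11a1 values was not tested.

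Slc11a2 (DMT1; ENSMUSG00000023030, chr15:100387898-100425072, minus strand), which moves iron across the endosome membrane after transferrin uptake, had 39.6, 37.8, 35.1 and 32.8 TPM in KO LPS libraries and 31.2, 38.2, 52.8 and 33.6 TPM in WT LPS libraries. The PBS libraries had 27.9, 25.6 and 26.2 TPM in KO and 27.4, 24.7 and 22.0 TPM in WT. LPS libraries were again above PBS libraries without overlap. In WT it rose by 0.61 ± 0.15 on the log2 scale (adjusted p = 0.00588, limma), called in all 17 alternatives. In KO it was 0.43 ± 0.15 (adjusted p = 0.0368), and only 8 of 17 alternatives kept the call. Among these was median-of-ratios scaling with 0.69 (adjusted p = 0.00796), while leaving out any 1 library of either KO group other than KO LPS library 4 ended it, with adjusted p up to 0.108.

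Tfrc (ENSMUSG00000022797, chr16:32608920-32632794, plus strand), the receptor for transferrin-bound iron, did not pass the test in either genotype. It had 65.2, 26.8, 49.1 and 68.7 TPM in KO LPS libraries and 57.5, 43.1, 34.5 and 27.2 TPM in WT LPS libraries. PBS libraries had 39.8, 43.3 and 69.5 TPM in KO and 64.3, 65.5 and 62.7 TPM in WT. The WT PBS libraries were nearly level and all above the WT LPS libraries, whereas the KO groups were widely spread and overlapped. The log2 fold change was 0.00 in KO (95% interval -0.67 to 0.67) and -0.70 in WT (-1.37 to -0.03; adjusted p = 0.0858, limma). In WT it passed with the compared groups fitted alone (adjusted p = 0.043) and without WT LPS library 1 (-0.88, adjusted p = 0.0395). Brain endothelium is rich in Tfrc, and in KO LPS library 2 Tfrc and the endothelial marker sum given with Slc40a1 were both the lowest of their group. In KO PBS libraries both were highest in library KO_PBS_915. They differed elsewhere: in WT LPS libraries Tfrc was lowest in library 4 (27.2 TPM) and the marker sum in library 3 (590 TPM). In KO LPS libraries Tfrc was highest in library 4 (68.7 TPM) and the sum in library 1 (1282 TPM). The part of endothelial cells in the Tfrc values was not tested.

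Steap3 (ENSMUSG00000026389, chr1:120190757-120272705, minus strand), the endosomal ferrireductase that hands iron to Slc11a2, was the least abundant member and did not pass in either genotype. It ranged from 4.80 to 8.63 TPM in KO LPS, 3.98 to 8.63 in WT LPS, 2.90 to 5.63 in KO PBS and 4.20 to 10.5 TPM in WT PBS libraries. The log2 fold change was 0.49 in KO (95% interval -0.22 to 1.19) and -0.07 in WT (-0.77 to 0.64), intervals that leave room for changes in either direction. The WT estimate changed sign under several settings, among them median-of-ratios scaling (0.22).

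Ireb2 (ENSMUSG00000032293, chr9:54863789-54912530, plus strand), an RNA-binding iron sensor, showed small differences. It had 48.7, 48.9, 51.9 and 58.9 TPM in KO LPS libraries, against 64.1, 60.8 and 61.7 TPM in KO PBS libraries, and 42.7 to 53.5 TPM in WT LPS libraries, against 52.6 to 58.0 TPM in WT PBS libraries. The KO groups did not overlap, and the WT groups did. It was called lower in KO (-0.25 ± 0.09, adjusted p = 0.037, limma) and not in WT (-0.19, adjusted p = 0.0917). The KO fall is close to the median shift of all genes, and median-of-ratios scaling gave 0.01 in KO (adjusted p = 0.967) and 0.14 in WT (adjusted p = 0.218).

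**Figure D2:**
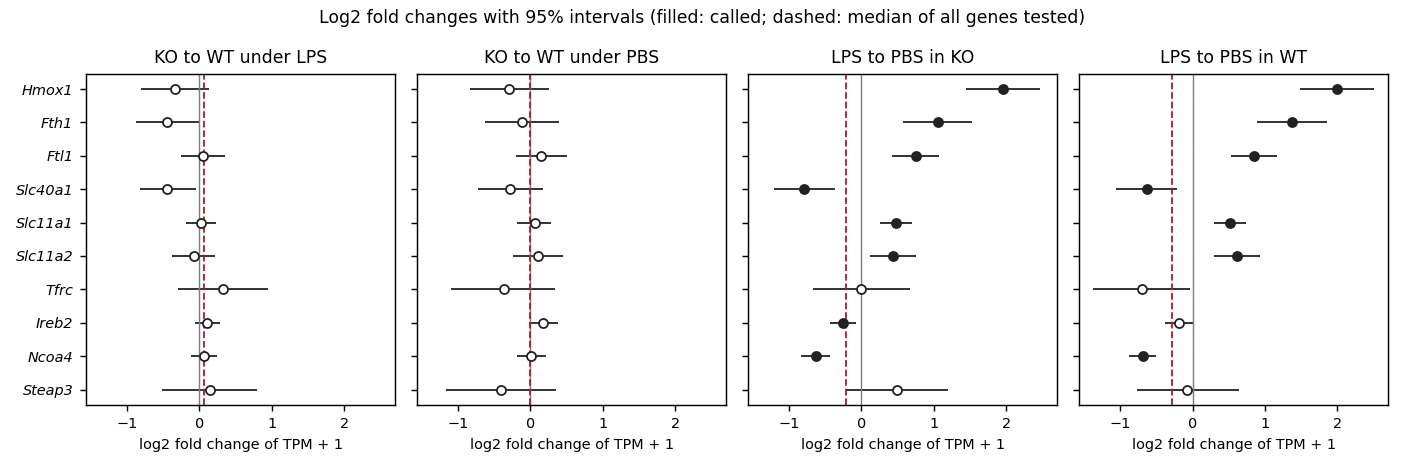
Log2 fold changes of TPM + 1 with 95% intervals for the 10 transcripts in 4 comparisons; filled points passed the test, and dashed lines mark the median of all genes tested. The LPS to PBS panels show Hmox1 at 1.95 in KO and 2.0 in WT and Slc40a1 at -0.79 in KO and -0.63 in WT, and no point is filled in the KO to WT panels.

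Between KO and WT libraries, the other axis of the study, none of the 10 transcripts passed the test under either treatment. Rheb mRNA itself was only partly lower in these bulk KO libraries. Its mean was 0.567 of that in WT under PBS and 0.739 under LPS, where it was not called (adjusted p = 0.11, limma). Under LPS, 0 of 10 were called between KO and WT libraries, where 0.497% of all genes were called (48 higher and 45 lower, against 27 higher and 145 lower with median-of-ratios scaling). At an unadjusted p under 0.05 the count was 1 of 10, Slc40a1, against 11.7% of all genes. Under PBS, 0 of 10 were called, where 1.02% of all genes were called, and 0 of 10 had an unadjusted p under 0.05, against 15.7% of all genes. The voom model on recovered reads called 0 of 10 in both.

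Slc40a1 had the smallest adjusted p under LPS. Its mean was 43.2 ± 10.2 TPM in KO LPS and 58.3 ± 11.4 TPM in WT LPS libraries (SD, n = 4 each), a log2 fold change of -0.44 (95% interval -0.82 to -0.05, adjusted p = 0.36, limma), and the groups overlapped. Without KO LPS library 2, the lowest of its group and also the lowest in endothelial and mural markers (469 TPM), the change was -0.24. Under PBS its mean was 73.6 ± 2.44 TPM in KO and 89.8 ± 11.0 TPM in WT libraries (n = 3 each), without overlap, with a log2 fold change of -0.28 (-0.72 to 0.17, adjusted p = 0.541). The endothelial and mural markers summed to 628 to 1119 TPM in KO PBS and 968 to 1592 TPM in WT PBS libraries, with a median log2 change of -0.68 over the 12 markers (0 called), and their part in the Slc40a1 difference was not tested. The KO and WT libraries did not overlap for 2 of the 10 transcripts under PBS, against 25.8% of all genes, and for 0 of the 10 under LPS, against 6.18% of all genes. The estimate was negative in both treatments and under all alternatives tried for each, and it passed in none.

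For the storage and heme genes the intervals were wide enough to hold moderate changes. Fth1 under LPS averaged 1807 ± 350 TPM in KO and 2526 ± 964 TPM in WT libraries (SD, n = 4 each), a log2 fold change of -0.44 (95% interval -0.88 to 0.01), which became -0.20 without WT LPS library 3. Hmox1 averaged 297 ± 87.8 TPM in KO LPS and 378 ± 115 TPM in WT LPS libraries, a change of -0.34 (-0.81 to 0.14), and it was -0.16 without WT LPS library 3. Under PBS the changes were -0.11 for Fth1 (-0.63 to 0.40) and -0.29 for Hmox1 (-0.84 to 0.26). Ftl1 gave 0.05 under LPS (-0.25 to 0.35) and 0.15 under PBS (-0.20 to 0.50).

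Narrower intervals were obtained for Slc11a1, Ncoa4 and Ireb2. Between KO and WT libraries, Slc11a1 changed by 0.02 under LPS (95% interval -0.18 to 0.23) and 0.06 under PBS (-0.18 to 0.29). Ncoa4 changed by 0.07 under LPS (-0.11 to 0.25) and 0.01 under PBS (-0.19 to 0.22). Ireb2 was at 0.11 under LPS (-0.06 to 0.29) and 0.18 under PBS (-0.02 to 0.38). Under PBS, Ireb2 had KO libraries at 60.8 to 64.1 TPM and WT libraries at 52.6 to 58.0 TPM, without overlap. Changes inside these bounds are not excluded by these libraries.

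Tfrc and Steap3 had the widest intervals. Tfrc changed by 0.33 under LPS (95% interval -0.29 to 0.95) and -0.37 under PBS (-1.09 to 0.34), and Steap3 by 0.15 under LPS (-0.51 to 0.80) and -0.40 under PBS (-1.16 to 0.35). Slc11a2 changed by -0.07 under LPS (-0.37 to 0.22) and 0.10 under PBS (-0.24 to 0.45). For all of these the KO and WT libraries overlapped in both treatments.

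Whether LPS acted differently in KO and WT was tested by the interaction, and 0 of 10 transcripts and 0% of all genes were called by limma or by voom. An unadjusted p under 0.05 was found for 0 of 10 transcripts and for 1780 genes (9.51%). The most distant from 0 was Tfrc at 0.70 (95% interval -0.24 to 1.65, adjusted p = 0.618, limma), since its mean was lower after LPS in WT and level in KO. For Hmox1 the interaction was -0.05 (-0.78 to 0.68), for Fth1 -0.32 (-1.01 to 0.36) and for Slc40a1 -0.16 (-0.75 to 0.43). The LPS response of an iron gene was thus not shown to differ between genotypes, nor to be the same.

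The balance of heavy to light ferritin chain was examined after the values had been seen. The ratio of Fth1 to Ftl1 TPM was 1.36, 1.56, 1.36 and 1.31 in KO LPS libraries and 1.65, 1.76, 2.78 and 1.79 in WT LPS libraries. It was 0.99, 1.19 and 1.24 in KO PBS libraries and 1.48, 1.32 and 1.30 in WT PBS libraries. KO libraries lay below WT libraries without overlap under both treatments, with means of 1.40 ± 0.11 in KO LPS and 2.0 ± 0.53 in WT LPS libraries (SD, n = 4 each) and of 1.14 ± 0.13 in KO PBS and 1.36 ± 0.10 in WT PBS libraries (n = 3 each). On the log2 ratio, exact permutation (two-sided) returned p = 0.0286 under LPS and p = 0.1 under PBS, the least these designs can give, with adjusted p = 0.0914 under LPS and 0.133 under PBS over the 8 ferritin comparisons. The log2 difference was -0.48 under LPS, -0.31 without WT LPS library 3, and -0.26 under PBS, -0.17 without library KO_PBS_911. The adjustment over 8 comparisons does not cover the choice of this ratio, which was made on the same values. How often ratios of other genes part KO from WT libraries was not counted. A ratio within a library does not depend on how libraries are scaled, but its absolute value rests on the gene lengths and is not a ratio of molecules. Reads that Ftl1 shares with its processed copies make the ratio uncertain as well.

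**Figure D3:**
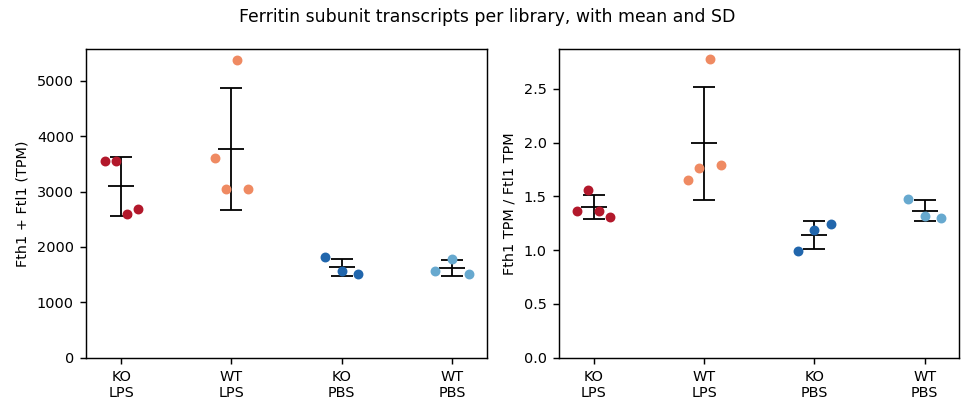
Sum of Fth1 and Ftl1 TPM (left) and ratio of Fth1 to Ftl1 TPM (right) in each library, shown as points, with mean and SD per group. The sum parts LPS from PBS libraries, and the ratio lies lower in KO than in WT libraries under both treatments, with WT LPS library 3 at 2.78.

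The transcripts also varied together within treatments to different degrees. Over the 14 libraries, after centring log2 of TPM + 1 within each treatment, Hmox1 and Fth1 had a Pearson's r of 0.83, Fth1 and Slc11a2 0.72, Tfrc and Ncoa4 0.67, and Fth1 and Ftl1 0.50, and the lowest was -0.65 for Slc11a1 and Steap3. Among 12223 genes averaging 5 TPM or more, those closest to Hmox1 were Atp6v1a, a subunit of the lysosomal proton pump (r = 0.92), and Slc25a5, a mitochondrial nucleotide carrier (0.89). Closest to Fth1 were the activation marker Cd69 (0.93) and the interferon-induced Oas2 (0.93), to Slc40a1 the transcription factor Ets1 and the junction protein Jam2, both also expressed in endothelium (0.95 each), and to Tfrc Notum (0.93) and Mmd (0.91). These values describe the same libraries, which share depth, cell makeup and genotype. The closest genes are the highest among 12223, and no library was left out. WT LPS library 3 had the highest Fth1, Hmox1 and Slc11a2 of all libraries, and its part in these r values was not tested.

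Other genes of iron uptake showed a marked rise of a few members and a fall of others under LPS. Of 15 tested outside the 10 transcripts, 3 rose and 3 fell in KO and 3 rose and 5 fell in WT (with median-of-ratios scaling, 4 rose and 1 fell in KO and 6 rose and 3 fell in WT). For this list and those below, the shares of all genes to set beside the counts before rescaling were 7.82% higher and 26.9% lower in KO. In WT these shares were 7.95% higher and 34.1% lower. The counts with median-of-ratios scaling are to be set beside 2331 higher and 1921 lower of 18724 genes in KO. In WT that scaling gave 3022 higher and 2471 lower. Steap4, a metalloreductase induced in inflammation, averaged 79.5 ± 29.8 TPM in KO LPS and 105 ± 57.2 TPM in WT LPS libraries (SD, n = 4 each), against 3.35 ± 0.681 TPM in KO PBS and 5.39 ± 2.74 TPM in WT PBS libraries (n = 3 each). The log2 fold change of Steap4 was 4.14 in KO and 3.98 in WT. Slc39a14 (ZIP14), which imports iron not bound to transferrin, rose by 1.86 in KO and 2.29 in WT on the log2 scale. Lcn2, which sequesters bacterial iron carriers and is abundant in neutrophils, rose by 2.33 in KO and 1.87 in WT on that scale. Slc22a17, a receptor for Lcn2, fell by 0.95 in KO and by 1.22 in WT, and the reductase Steap2 fell by 1.25 in KO and by 1.68 in WT, as log2 changes. With median-of-ratios scaling Steap2 was no longer called in KO (-1.01, adjusted p = 0.0599). For Lcn2, the neutrophil markers given with Slc11a1 moved in the same direction in KO.

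Among genes of iron export and its hormonal control, the ferroxidase Cp rose and several others fell. Of 7 tested beside Slc40a1, 1 rose and 3 fell in KO and 1 rose and 4 fell in WT (with median-of-ratios scaling, 1 rose and 1 fell in KO and 1 rose and 3 fell in WT). Cp, which oxidises iron leaving the cell, averaged 98.5 ± 18.4 TPM in KO LPS and 109 ± 27.6 TPM in WT LPS libraries (SD, n = 4 each), against 31.1 ± 4.66 TPM in KO PBS and 35.4 ± 9.37 TPM in WT PBS libraries (n = 3 each), log2 fold changes of 1.62 in KO and 1.59 in WT. Bmp6, the signal that induces hepcidin in liver, fell by 1.22 in KO and by 1.75 in WT, as log2 changes. The ferroxidase Heph fell by 1.17 on the log2 scale in WT, at 1.70 ± 0.551 TPM in WT LPS and 5.12 ± 1.55 TPM in WT PBS libraries (SD, n = 4 and n = 3), and its KO change was -0.59, not called. Choroid plexus and ependyma markers summed to 4064 to 14756 TPM in KO LPS, 2390 to 8947 in WT LPS, 11391 to 26213 in KO PBS and 16743 to 22221 in WT PBS libraries, with 9 of 10 lower in KO and 10 of 10 in WT. Their part in these falls was not tested.

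In the control of iron-responsive translation, Fbxl5, the iron-sensing subunit of the ligase that degrades Ireb2 protein, rose. It averaged 86.4 ± 13.9 TPM in KO LPS and 87.8 ± 15.9 TPM in WT LPS libraries, against 43.3 ± 0.546 TPM in KO PBS and 47.3 ± 1.17 TPM in WT PBS libraries (SD, n = 4 and n = 3 each), log2 fold changes of 0.96 in KO (adjusted p = 0.000283, limma) and 0.86 in WT (adjusted p = 0.00065). Cul1, the scaffold of the same ligase, fell by 0.51 in KO and by 0.54 in WT on the log2 scale, of which -0.24 in KO and -0.21 in WT were left with median-of-ratios scaling, still called. Of 6 tested beside Ireb2, 1 rose and 1 fell in KO and 1 rose and 2 fell in WT, with the same counts under median-of-ratios scaling. In the storage list, none of 6 beside the members rose, and 3 fell in KO and 4 in WT (1 lower in KO, and 1 higher and 2 lower in WT, with median-of-ratios scaling). Herc2, a ligase that controls Ncoa4 protein, fell by 0.89 in KO and by 0.71 in WT on the log2 scale, and with median-of-ratios scaling it was at -0.63 in KO and -0.37 in WT, still called. Pcbp1, which delivers iron to ferritin, fell by 0.35 in KO and by 0.30 in WT (log2), close to the shift of all genes, and with median-of-ratios scaling its log2 change was -0.08 in KO and 0.04 in WT.

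Genes of heme uptake, breakdown and export moved in both directions. Of 15 tested beside Hmox1, 3 rose and 2 fell in KO and 4 rose and 3 fell in WT (with median-of-ratios scaling, 5 rose and 2 fell in KO and 6 rose and 0 fell in WT). Spic, the transcription factor of heme-recycling macrophages, averaged 19.8 ± 2.12 TPM in KO LPS and 15.5 ± 9.27 TPM in WT LPS libraries (SD, n = 4 each), against 0.579 ± 0.268 TPM in KO PBS and 0.746 ± 0.444 TPM in WT PBS libraries (n = 3 each), log2 fold changes of 3.73 in KO and 3.09 in WT. Hp, the haemoglobin-binding haptoglobin, rose by 3.66 in KO and 2.94 in WT on the log2 scale, and is also made by neutrophils. Bach1, the heme-sensing repressor of Hmox1, rose by 0.70 on the log2 scale in WT, against 0.20, not called, in KO. Hmox2, the constitutive heme oxygenase, fell by 0.56 in KO and by 0.31 in WT on the log2 scale, and with median-of-ratios scaling it was -0.30 in KO, still called, and 0.02 in WT, not called. Lrp1, the receptor for heme bound to hemopexin, fell by 1.03 in KO and by 0.60 in WT on the log2 scale, and its WT value lost the call with median-of-ratios scaling (-0.26, adjusted p = 0.0687).

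Of 12 heme synthesis genes, 1 rose and 4 fell in KO and 1 rose and 6 fell in WT, but with median-of-ratios scaling 1 rose and 1 fell in KO and 4 rose and 2 fell in WT. Alas1, the rate-limiting enzyme, rose by 0.57 in KO (adjusted p = 0.00169, limma) and 0.39 in WT (adjusted p = 0.0125) on the log2 scale, and by 0.83 in KO and 0.73 in WT with median-of-ratios scaling. Urod, a later enzyme of the pathway, fell by 0.37 in KO and by 0.70 in WT on the log2 scale, and in KO it was no longer called with median-of-ratios scaling (-0.12, adjusted p = 0.386), while the WT value was -0.37, still called. Of 23 genes of mitochondrial iron and iron-sulfur clusters none rose, and 7 fell in KO and 9 in WT, which became 0 higher and 1 lower in KO and 2 higher and 2 lower in WT with median-of-ratios scaling. Of all genes tested, 26.9% were lower in KO and 34.1% in WT before rescaling, so the 7 and 9 falls of this list lay near that share. Cisd1, an iron-sulfur protein of the outer mitochondrial membrane, fell by 0.80 in KO and by 1.06 in WT on the log2 scale, and in KO it lost the call with median-of-ratios scaling (-0.54, adjusted p = 0.0568).

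NRF2, the factor that also drives Hmox1 and ferritin transcription, had other targets in both directions. Of 17 tested, 6 rose and 1 fell in KO and 6 rose and 3 fell in WT (with median-of-ratios scaling, 11 rose and 1 fell in KO and 10 rose and 2 fell in WT). Gsr, which regenerates glutathione, rose by 1.71 in KO and 1.26 in WT on the log2 scale. The thioredoxin Txn1 rose by 0.95 in KO and 0.83 in WT, and the cystine importer Slc7a11 by 1.0 in KO and 1.11 in WT, as log2 changes. Gclc, which starts glutathione synthesis, fell by 0.74 in KO and by 0.78 in WT on the log2 scale, and the quinone reductase Nqo1 fell by 0.92 in WT on that scale. With median-of-ratios scaling Gclc was at -0.47 in KO and -0.44 in WT and Nqo1 at -0.61 in WT, all still called. Of 10 ferroptosis defence genes, which limit iron-driven lipid peroxidation, 2 rose and 3 fell in each genotype (with median-of-ratios scaling, 4 rose and 1 fell in KO and 4 rose and 0 fell in WT). Gpx4, the central enzyme of that defence, averaged 141 ± 23.1 TPM in KO LPS and 142 ± 14.3 TPM in WT LPS libraries, against 198 ± 17.6 TPM in KO PBS and 196 ± 8.01 TPM in WT PBS libraries (SD, n = 4 and n = 3 each). Its log2 fold change was -0.50 in KO and -0.47 in WT, and with median-of-ratios scaling it was -0.24 in KO and -0.13 in WT, not called in either.

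**Figure D4:**
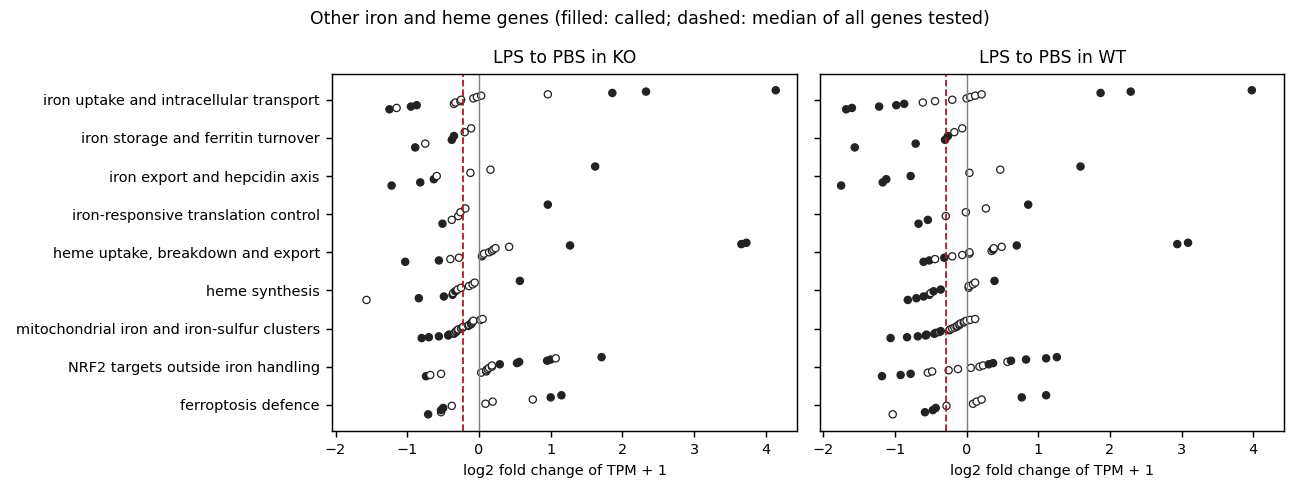
Log2 fold changes of TPM + 1, LPS over PBS, in KO (left) and WT (right) for other genes of iron and heme handling, 1 point per gene in rows by list; filled points passed the test, and dashed lines mark the median of all genes tested. Steap4 at 4.14 in KO and 3.98 in WT lies farthest right, and most falls lie within 1 of 0.

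Few of all genes were called between KO and WT libraries, 1.02% under PBS and 0.497% under LPS. The wider lists were likewise nearly without calls. Slc25a38, the mitochondrial glycine carrier needed for heme synthesis, was the only gene called in them, under PBS, at 40.7 ± 1.78 TPM in KO and 30.4 ± 2.36 TPM in WT libraries (SD, n = 3 each; log2 fold change 0.41, adjusted p = 0.0474, limma), and with median-of-ratios scaling its adjusted p was 0.0765. Under LPS it had 38.1 ± 2.95 TPM in KO and 31.0 ± 1.69 TPM in WT libraries (n = 4 each; 0.29, adjusted p = 0.12). The nearest to a call under LPS was Hmox2, at 75.9 ± 2.78 TPM in KO and 94.4 ± 7.73 TPM in WT libraries (-0.31, adjusted p = 0.0582), without overlap, and it was called with Gm23935 removed (adjusted p = 0.0378).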

How the data were processed

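Bead-purified mouse brain cells gave 14 bulk RNA-seq libraries. The deposited table holds TPM per gene, scaled by the authors to 1000000 per library; per the submitters' processing notes, the tools were STAR 2.7.10b, featureCounts 2.0.1, cutadapt 4.4 and FastQC 0.11.9, and the build named is hg38, a human one, while the identifiers are those of mouse. Strand is not given in the sources used here. Symbols matched 41588 identifiers. Multiplied by GENCODE M21 exon-union lengths, 98.4% to 98.5% of values were whole within 0.02 reads, which gave the depths.

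In R 4.3.3, limma 3.58.1 was fitted to log2 of TPM + 1 with an intensity trend and a mean for each of the 4 groups, adjusted over 18724 genes. Such changes are smaller than TPM ratios for low genes. Calls use an adjusted p under 0.05, and adjusted p without a tool is from this fit. The fit was tested on simulated data. Exact permutation tests used scipy 1.17.1. Coordinates are those of GENCODE M21, not of the authors' build.

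The members and lists were chosen with earlier results of these data known. All members are named. From other lists the text gives a part of at most 3 called genes per direction with a mean of at least 5 TPM, or the smallest p. Libraries are not stated to come from separate animals, so p-values measure the spread between libraries. Other pseudocounts, filters, scalings, fits and left-out libraries were tried, and voom on recovered reads and the ferritin ratio were added after seeing the data.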

Additional observations from a re-analysis of the deposited data

Results flagged for a closer look

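In WT LPS library 3, Fth1 stood at 3956 TPM, far above the other 3 libraries of the group, the gap to the nearest being 0.848 of the whole range. The ratio of Fth1 to Ftl1 stood apart in the same library at 2.78, a gap of 0.876 of the range. In KO LPS library 2, Slc40a1 stood at 28.0 TPM, below the other 3, a gap of 0.852 of the range. Of 22 groups of 4 libraries examined, 3 were flagged in this way, and chance flags about 1 in 20.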

How the results depend on the processing

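Hmox1, Fth1, Ftl1, Slc11a1 and Ncoa4 were called between LPS and PBS in both genotypes in all 17 alternatives each. The number of the 10 transcripts called was 6 to 8 in KO and in WT when 1 library was left out, and 0 under every alternative of the KO to WT and interaction comparisons. In WT, Ireb2 was also called without WT LPS library 2 (adjusted p = 0.0431), and in KO it kept its call in 5 of 17. KO_LPS_4 was the shallowest library (8.0 M reads), and 8 of the 10 transcripts were called in KO without it.

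Genes called under LPS between KO and WT (93) became 32 with no filter, 141 with a filter at 5 TPM, 172 with median-of-ratios scaling, 163 with Gm23935 removed, 47 with no intensity trend, 0 with the compared groups alone (1827 at an unadjusted p under 0.05), 8 without WT_PBS_914 and KO LPS library 3, 307 with voom, and 18 to 99 with 1 library left out. Under PBS (191) they became 79 with no filter, 297 with Gm23935 removed, 65 with no intensity trend, 109 with the compared groups alone, 19 without these 2 libraries, and 8 to 50 with 1 left out. LPS to PBS in KO gave 4252 with median-of-ratios scaling, against 6494. The interaction gave 3 with a pseudocount of 0.1 and without these 2 libraries, 2 with median-of-ratios scaling, 1 with a pseudocount of 5, with no filter, with Gm23935 removed and with no intensity trend, and 0 to 2 with 1 left out. The cause was not tested.

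With the replicate number as a block, 0 genes were called between KO and WT under LPS (1364 at an unadjusted p under 0.05) and 0 of the 10. Same-numbered LPS libraries correlated at 0.061, -0.056, -0.086 and -0.026 in their deviations, and differently numbered ones at -0.092 to 0.094. No pairing by number was seen, but the check cannot exclude one, since other differences between libraries can hide it.

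Estimates near 0 changed sign. Between KO and WT under LPS, median-of-ratios scaling gave -0.04 for Ftl1, -0.07 for Slc11a1 and -0.02 for Ncoa4, and leaving out 1 library gave -0.03 to 0.12 for Ftl1, -0.05 to 0.08 for Slc11a1, -0.17 to 0.08 for Slc11a2 and -0.01 to 0.31 for Steap3. Under PBS, Slc11a1 was -0.02 and Ncoa4 -0.03 without the 2 pituitary-rich libraries, Ncoa4 was -0.03 with voom, and leaving out 1 library gave -0.02 to 0.13 for Slc11a1 and -0.03 to 0.06 for Ncoa4. In LPS to PBS in WT, Ireb2 was 0.14 and Steap3 0.22 with median-of-ratios scaling, and Steap3 was 0.03 with Gm23935 removed, 0.26 without the 2 libraries, 0.13 with voom and -0.31 to 0.26 with 1 left out. In KO, Ireb2 was 0.01 with median-of-ratios scaling. In the interaction, Ncoa4 was -0.01 with median-of-ratios scaling, Hmox1 0.15 and Slc11a1 0.08 without the 2 libraries and Hmox1 0.01 with voom, and leaving out 1 gave -0.23 to 0.13 for Hmox1, -0.19 to 0.03 for Ftl1, -0.11 to 0.04 for Slc11a1 and -0.29 to 0.03 for Slc40a1.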
